A study of Mus musculus with 6 samples.

Results

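The EGF receptor family comprises 4 receptor tyrosine kinase genes, Egfr, Erbb2, Erbb3 and Erbb4. They are described here with 6 genes for their ligands, Areg, Ereg, Hbegf, Tgfa, Btc and Nrg1. These 10 genes were chosen by name, with earlier results of these data known, out of 21887 protein-coding genes on the primary mouse chromosomes. Each was searched for regions of a deposited ATAC-seq list. ATAC-seq marks open chromatin by the cuts of a transposase. A region belonged to a gene when its centre fell inside the gene's span or at most 100 kb from it. In all, 24 of the 6502 listed regions belonged to at least 1 of the 10 genes, and 9 of the 10 genes had a region.

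The libraries came from basal stem cells of mouse prostate, 3 from inflamed prostates (labelled POET3 genotype, treatment inflamed) and 3 from naive prostates (labelled WT, treatment control). POET3 mice carry a transgene that makes the prostate express ovalbumin, and the labels' protocols place POET3 mice in both groups. Inflammation followed transfer of pre-activated OT-1 splenocytes, whose T cells recognise ovalbumin, and prostates were taken after 7 days. Cells of both groups were freshly sorted by flow cytometry for the surface markers Sca-1 and CD49f, without CD45 (leukocytes) or CD31 (endothelium). Genotype and inflammation go together in the labels and cannot be told apart, and the promoter of the transgene is not given in the sources used here.

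The list gives chromosome, start and end only. It was read as regions that differ between inflamed and naive cells, because of the abbreviation "diff" in its name and because edgeR is among the tools of the submitters' processing notes, but it states no direction. Nothing below says that a region was more or less open in inflamed cells. No value per library, replicate error or depth could be given, no test between the groups was possible, and the sort could not be checked against marker levels. Regions were 143 bases wide (3210 regions) or 451 bases wide (3291), apart from a single one of 235 bases. What the 2 widths stand for is not given in the sources used here. Positions are on mm10, counted from 1.

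The receptors sit in the cell membrane, pair on ligand binding and signal through the RAS-MAPK and PI3K-AKT routes. ErbB2 has no known ligand of its own and serves as a partner, and ErbB3 has little kinase activity and depends on its partners. Amphiregulin (Areg), epiregulin (Ereg), HB-EGF (Hbegf), TGF-alpha (Tgfa) and betacellulin (Btc) bind the EGF receptor, some of them ErbB4 as well, and neuregulin 1 (Nrg1) binds ErbB3 and ErbB4. The ligands are made mostly as membrane precursors that proteases cut free. In epithelia the EGF receptor is typical of basal cells, where it drives proliferation and repair.

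Sequence could be read for regions that overlap a promoter window of the RefSeq table (GRCm38.p6, the assembly of mm10), which holds 250 bases before and 50 bases after a start site. Among the 24 regions this applied to 2. The first lies at the start of Epgn, the gene of the related ligand epigen, inside the window of Ereg. The second lies at the start of the long noncoding RNA gene Gm19619, inside the window of Btc. A further stretch is shown for Etv5, an ETS-family transcription factor gene known as a target of RAS-MAPK signalling. The Epgn stretch is the 250 bases before its start (chr5:91027267-91027516, + strand), all of them inside a 451-base region. The Gm19619 stretch is a complete 143-base region (chr5:91283052-91283194, - strand). The Etv5 stretch is the 250 bases before its start (chr16:22439571-22439820, - strand), all of them inside a 451-base region. Capitals mark a match to a searched motif.
Epgn: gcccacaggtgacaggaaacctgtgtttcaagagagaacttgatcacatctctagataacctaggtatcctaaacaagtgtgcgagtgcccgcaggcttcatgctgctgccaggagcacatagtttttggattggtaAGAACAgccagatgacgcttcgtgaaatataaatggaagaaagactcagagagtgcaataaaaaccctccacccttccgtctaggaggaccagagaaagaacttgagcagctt
Gm19619: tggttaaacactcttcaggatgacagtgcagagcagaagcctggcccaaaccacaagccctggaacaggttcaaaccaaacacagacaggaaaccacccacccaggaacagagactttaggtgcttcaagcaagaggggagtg
Etv5: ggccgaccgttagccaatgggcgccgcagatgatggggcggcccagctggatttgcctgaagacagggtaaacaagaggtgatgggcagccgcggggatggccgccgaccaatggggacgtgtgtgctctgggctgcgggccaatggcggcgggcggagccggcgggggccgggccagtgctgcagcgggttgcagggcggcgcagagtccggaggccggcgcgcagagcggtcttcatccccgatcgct
The only match in these stretches was the steroid receptor half-site TGTTCT, on the reverse strand of the Epgn stretch from base 138, a motif that 16.1% of all 32851 promoter windows hold in the same 250 bases. The other motifs searched, on both strands, were TGANTCA (AP-1), 2 forms of the NF-kB consensus, the androgen response element (which contains the half-site), the p63 consensus, ACCGGAAGT (ETS), TTCCNGGAA (STAT) and TGACGTCA (CRE). G and C made up 46.8% of the Epgn stretch and 71.2% of the Etv5 stretch, beside a mean of 53.2% over all windows in the same bases. The Etv5 stretch had 27 CpG dinucleotides and the Epgn stretch 5. In the Gm19619 region, G and C made up 51.7%, beside 55.5% over all windows in the same bases, and it had 0 CpG dinucleotides.

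Of the 10 genes, 9 (90.0%) had a region, where 42.7% of all protein-coding genes did. The share differed with gene length, and a longer gene also has a wider window. It was 31.6% for genes under 10 kb (among the 10, Areg), 46.0% for those of 10 to 100 kb (Erbb2, Erbb3, Ereg, Hbegf, Tgfa and Btc), 62.4% for those of 100 to 500 kb (Egfr) and 70.5% for those over 500 kb (Erbb4 and Nrg1). The median was 2 regions per gene for the 10 and 0 for all protein-coding genes. By width, 8 of the 10 had a 143-base region, beside 29.0% of all protein-coding genes, and 5 had a 451-base region, beside 19.7%. These counts describe the list and were not tested, and the 10 genes were chosen with earlier results of these data known. Accessible sites lie near genes in general, and the set of all accessible regions was not used here. The 24 regions were 12 of each width, and 14 of them (58.3%) lay inside a protein-coding gene, beside 47.6% of all listed regions. These shares have different bases, since the 24 were selected for lying inside or within 100 kb of a protein-coding gene. Of all listed regions, 5587 lay that close to a protein-coding gene. Every region inside a gene is among those, so their share inside a gene is above 47.6%. Its value was not computed, and 58.3% was not compared with it.

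**Figure D1:**
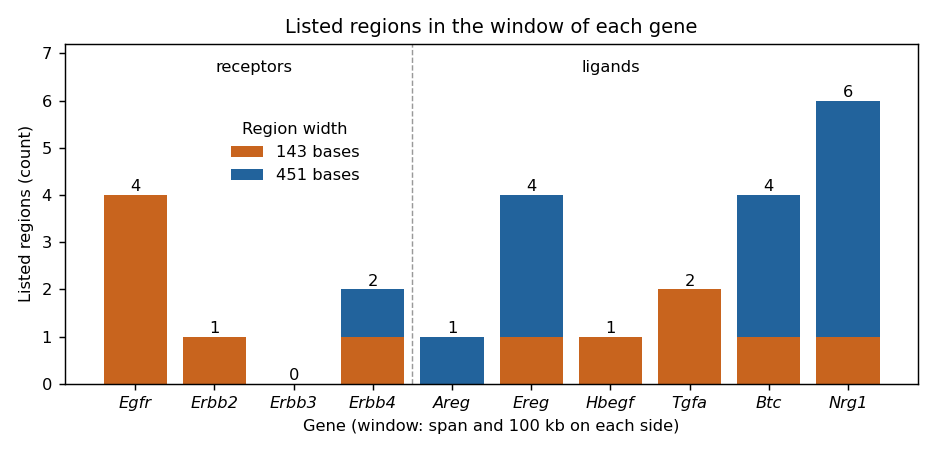
Number of listed regions (vertical axis) whose centre lies inside or within 100 kb of each gene (horizontal axis), coloured by region width. Nrg1 has 6, Egfr, Ereg and Btc have 4 each and Erbb3 has 0. 1 region counts for both Areg and Ereg.

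The receptor genes held 7 regions, 6 of 143 bases (4 of them at Egfr) and 1 of 451 bases. Of all listed regions, 49.4% were 143 bases wide. Egfr (NCBI gene 13649, chromosome 11, 16752203 to 16913907) had 4, all of 143 bases, and was the nearest protein-coding gene of each. Seen from its start site, the first lay 35.3 kb upstream (16716830 to 16716972), in the long noncoding RNA gene Gm39583. The other 3 lay inside Egfr, 38.2 kb (16790369 to 16790511), 39.2 kb (16791361 to 16791503) and 57.6 kb (16809755 to 16809897) downstream of the start. The centres of the first pair inside the gene were 0.992 kb apart, and both also fell in the noncoding gene Gm39584, while the last fell in the noncoding gene Egfros. No region was centred at the Egfr start site or in the part of the gene beyond 57.6 kb, out of a length of 162 kb. At least 3 regions inside the span were found in 5.90% of the 2202 protein-coding genes of 100 to 500 kb, and at least 4 in the window in 9.45%, thresholds chosen after the counts were seen. The next region beyond the window was a 451-base one 140 kb away, nearest to Sec61g.

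Erbb2 (NCBI gene 13866, chromosome 11, 98412484 to 98437716), the partner receptor, had a single region of 143 bases. It lay 12.1 kb upstream of the start site (98400273 to 98400415), inside the neighbouring gene Pgap3, which encodes a factor that remodels GPI anchors. The next region was 263 kb away.

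Erbb3 (NCBI gene 13867, chromosome 10, 128567523 to 128589635), the receptor with a weak kinase, was the only one of the 10 genes with no region. The closest, of 143 bases, was 392 kb away (128981088 to 128981230), nearest to the olfactory receptor gene Olfr9.

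Erbb4 (NCBI gene 13869, chromosome 1, 68031884 to 69108576) spans 1077 kb and had 2 regions, both inside it. The 451-base region (69106768 to 69107218) was centred 1.07 kb downstream of the annotated start site, closer to a start than any other region of the 4 receptor genes. The 143-base region (68721006 to 68721148) lay 387 kb downstream. Of the 227 protein-coding genes over 500 kb, 79.3% had at most 2 regions inside the span, as Erbb4 did. Another 451-base region lay beyond the upper end, 134 kb from the gene and outside the window (69241880 to 69242330), and Erbb4 was still its nearest protein-coding gene.

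**Figure D2:**
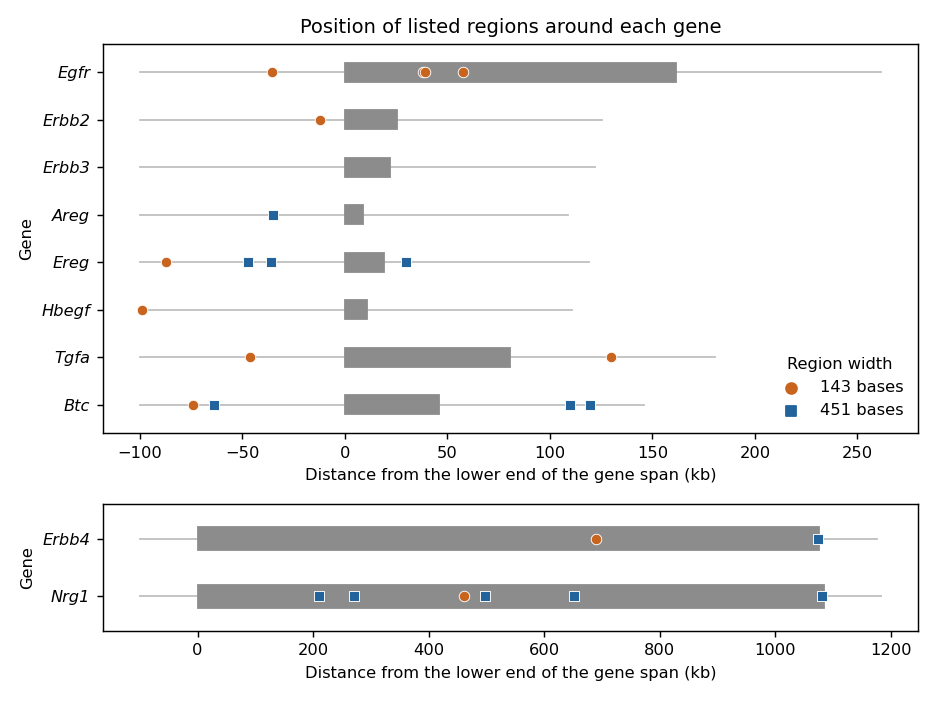
Centres of the listed regions (circles 143 bases, squares 451 bases) along each gene's window, as distance in kb from the lower end of its span, which is the grey bar. The thin line is the window, 100 kb beyond each end. Regions lie inside Egfr, Erbb4 and Nrg1 and beside the other 6 genes that have one, and the 451-base region of Erbb4 and the last of Nrg1 sit at the upper end of the gene.

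The 6 ligand genes held 17 distinct regions, 11 of 451 bases (5 of them in Nrg1) and 6 of 143 bases. Of all listed regions, 50.6% were 451 bases wide. Whether widths differ between receptor and ligand genes was not tested. Areg, Ereg and Btc lie in a row on chromosome 5, with Epgn below Ereg. Between 100 kb below Epgn and 100 kb above Btc, a stretch of 575 kb, the list had 9 regions, 7 of them of 451 bases. That equals 15.6 regions per Mb. The joined windows of the receptor and ligand genes had 5.48 per Mb, but they take in most of this same stretch. The rate was 2.41 per Mb over the 2703 Mb between the first and last gene of each chromosome. That last rate is not limited to the surroundings of genes. The stretch was chosen for these genes, and the value of 15.6 is a description. Its lower bound, set by Epgn, takes in a region outside the Ereg window, 143 kb from Ereg (90931106 to 90931556). Further 451-base regions lay beyond both ends of the stretch. Among them were 90917213 to 90917663 on the Cxcl2 side and 91517487 to 91517937 at Parm1. None of the 9 regions of the stretch was centred inside Ereg, Areg, Btc or Epgn.

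Ereg (NCBI gene 13874, 91074617 to 91093649) had 4 regions. The closest was a 451-base region 10.9 kb above its upper end (91104285 to 91104735). It stood alone in the 46.0 kb between Ereg and Areg, with Ereg as its nearest gene. Below Ereg lay a 451-base region 35.8 kb away (91038590 to 91039040), 3.60 kb from Epgn, and another 47.2 kb away (91027146 to 91027596), centred 0.146 kb outside Epgn and covering its start, the region whose sequence is given above. The 143-base region 87.0 kb away (90987518 to 90987660) lay inside Mthfd2l, a gene of mitochondrial folate metabolism.

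For Areg (NCBI gene 11839, 91139599 to 91148432), the region between it and Ereg was the only one, 35.1 kb upstream of the Areg start site. The 451-base region 3.60 kb from Epgn missed the Areg window, at 101 kb.

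Btc (NCBI gene 12223, 91357261 to 91402994) had 4 regions, 2 on each side. Upstream of its start site lay 451-base regions at 64.0 kb (91466750 to 91467200) and 74.0 kb (91476808 to 91477258), both nearer to Parm1. On the other side, past the end of the gene, lay a 451-base region 64.0 kb from it (91293060 to 91293510) and a 143-base region 74.1 kb from it (91283052 to 91283194), the one at the start of Gm19619. Btc was the nearest protein-coding gene of both. Each pair was about equally spaced, with centres 10.1 and 10.2 kb apart. Of the protein-coding genes of 10 to 100 kb, the class of Ereg and Btc, 2.45% had at least 4 regions, again a threshold chosen after the counts were seen. Both counts depend on the window: with 50 kb on each side Btc had 0 regions and Ereg 3, and with 200 kb Btc had 5, Ereg 9 and Areg 6.

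**Figure D3:**
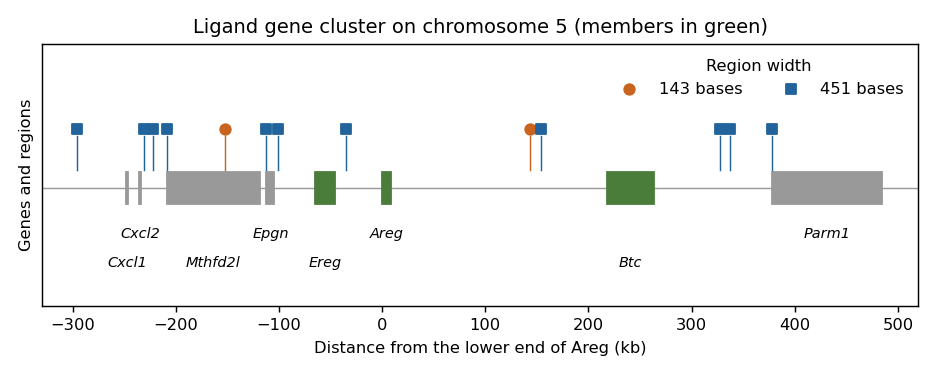
Genes (bars, the described ligand genes in green) and listed regions (circles 143 bases, squares 451 bases) around the ligand cluster on chromosome 5, as distance in kb from the lower end of Areg. Shown are those from 200 kb below Epgn to 200 kb above Btc, which takes in Cxcl1, Cxcl2 and Parm1. A single region stands between Ereg and Areg, and the regions around Btc form a pair on each side, 64.0 to 74.1 kb from the gene.

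Tgfa (NCBI gene 21802, chromosome 6, 86195038 to 86275744) had 2 regions of 143 bases, neither inside it nor nearest to it. The first (86148646 to 86148788) lay 46.3 kb below the gene and 24.3 kb from Add2, an adducin gene of the membrane skeleton. The second (86324746 to 86324888) lay 49.1 kb above it and 40.7 kb from Fam136a.

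Hbegf (NCBI gene 15200, chromosome 18, 36504927 to 36515805) had a single 143-base region, 99.0 kb away (36405821 to 36405963), inside the prefoldin subunit gene Pfdn1. It entered by a narrow margin, and another 143-base region in Pfdn1 (36404840 to 36404982), centred 100.016 kb away, was left out.

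Nrg1 (NCBI gene 211323, chromosome 8, 31807452 to 32891609) had the most regions of the 10 genes, 6, all inside its span of 1084 kb. Of these, 5 were 451 bases wide, at 210 kb (32017547 to 32017997), 270 kb (32077305 to 32077755), 497 kb (32304663 to 32305113) and 652 kb (32458911 to 32459361) above the lower end, and 2.92 kb below the upper end (32888465 to 32888915). The 143-base region lay 461 kb above the lower end (32268389 to 32268531). The region at 210 kb also fell in the noncoding gene Gm26578. The one near the upper end also fell in the shorter protein-coding model Gm3985 and the noncoding gene Gm51527. At least 6 regions inside the span were found in 4.85% of the 227 protein-coding genes over 500 kb, a threshold chosen after the counts were seen. Nrg1 has many transcript forms with separate start sites, and which start a region lies near was not examined, since the promoter table has no entry for Nrg1.

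Promoter sequence was in the table for 6 of the 10 genes, Egfr, Erbb2, Erbb4, Areg, Btc and Tgfa. No listed region overlapped any of these 6 promoter windows, and 2.21% of all 32851 promoter windows in the table overlapped one, so 0 of 6 is near the background. The only match to the motifs listed above was a CRE in the Areg window, a motif that 1.79% of all promoter windows hold.

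Other genes of the pathway were taken from 5 lists with 60 genes, also chosen with earlier results of these data known. Of these 60 genes, 40 (66.7%) had a region, beside the 42.7% of all protein-coding genes. All 5 other ligand genes had one. Epgn had 5, of which 4 also belonged to Ereg. Nrg3, a neuregulin gene of 1108 kb on chromosome 14, had 4, all of 451 bases and inside it. The median for protein-coding genes over 500 kb was 2 in the window and 1 inside the span. Egf had 3, of which a 451-base one lay inside it, 2.85 kb short of its lower end, and Nrg2 had 2, of which a 143-base one lay inside it, 3.80 kb short of its lower end. Nrg4 had 1, at 78.5 kb.

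The sheddases, which cut the ligands free, and their regulators had regions at 3 of 7 genes (42.9%), close to the 42.7% of all protein-coding genes. Adam17, the main sheddase for several EGF receptor ligands, had 2 of 143 bases, the nearer inside the gene. Adam9 had a 451-base region 26.9 kb away, and the iRhom gene Rhbdf2, whose product helps ADAM17 mature, a 143-base region 31.1 kb away. Adam10, Adam12, Adam15 and Rhbdf1 had none.

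Among adaptors and downstream kinases, 12 of 20 genes (60.0%) had a region, beside 42.7% of all protein-coding genes, without matching for gene length. The adaptor gene Gab1 and Pik3ca, which encodes a catalytic subunit of PI3K, each had a region of 143 bases inside the gene. Among the genes with none were Grb2, Plcg1 and Stat3.

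Negative regulators had regions at 13 of 18 genes (72.2%), beside the same 42.7% of all protein-coding genes, again without matching for gene length. Ptprj, a receptor phosphatase gene of 151 kb that acts on the EGF receptor, had 6, all of 143 bases and 5 of them inside it. Of protein-coding genes of 100 to 500 kb, 9.45% had at least 4 regions in the window and 5.90% at least 3 inside the span. Those thresholds were chosen on the Egfr counts and are lower than the Ptprj counts. The share of genes that reach the Ptprj counts was not computed. The other 3 genes with a region inside were Ptprk, the Sprouty-related gene Spred2 and the ubiquitin ligase gene Cblb. Spred1, a RAS-MAPK inhibitor gene, had 3 regions of 451 bases, the nearest centred 0.544 kb outside the gene. Errfi1, an inhibitor of the receptor kinase, had none, and its nearest region was 309 kb away. Rnf41, which encodes a ubiquitin ligase for ErbB3, shared the empty stretch of chromosome 10 with Erbb3. The nearest region of both was the one by Olfr9, 540 kb from Rnf41.

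Immediate early and target genes had regions at 7 of 10 (70.0%), beside 42.7% of all protein-coding genes, also without matching for gene length. Myc had 3, the nearest of 451 bases across its lower end (chromosome 15, 61985055 to 61985505), centred 0.061 kb outside the gene. Etv5 also had 3, and those of Etv5 were all 451 bases wide, with its start site covered by the region shown above. Phlda1 had 3 regions of 143 bases, the nearest 31.4 kb away, and Ier3 had 2 of 143 bases, the nearest 26.5 kb away. Fos, Egr1 and Ccnd1 had none.

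**Figure D4:**
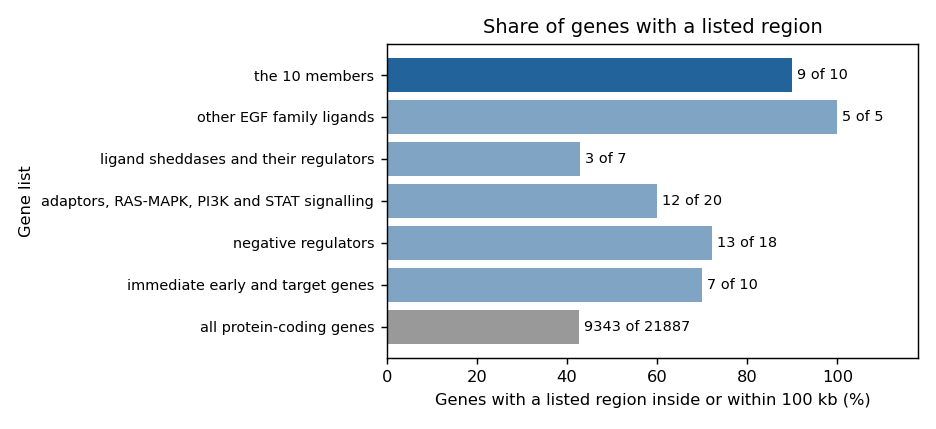
Share of genes (%) with a listed region inside or within 100 kb, for the 10 genes, the 5 pathway lists and all protein-coding genes, with counts at the bar ends. The 10 genes stand at 90.0% and all protein-coding genes at 42.7%. The genes and lists were chosen with earlier results of these data known. The lists were not matched for gene length and the difference was not tested.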

How the data were processed

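ATAC-seq libraries of 3 inflamed and 3 naive samples are represented by a single deposited list of region coordinates on mm10 (starts counted from 0, other columns absent). Per the submitters' processing notes, the authors used BWA 0.7.17-r1188, SAMtools, HOMER 4.8 and edgeR. Order, thresholds and pooling are not given in the sources used here. The list holds 0 columns of values per library, so depth is unknown and no test or error was computed. A filter applied before deposit fixes which regions can appear.

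Gene spans came from a RefSeq table (GRCm38.p6), without exons, so exonic and intronic positions were not told apart. Start sites and promoter sequence came from its promoter table. Regions were placed by centre, 100 kb on each side, and the nearest gene was protein-coding, the shortest where several enclosed a region. Python 3.11.15, pandas 2.3.3 and NumPy 2.4.6 were used. The code was tested on simulated data against a plain search. From each pathway list, up to 4 genes with the closest regions and those with at least 4 regions are named; the genes without a region, and the other named genes, were picked with their positions in view. Some genes that this rule selects are left out of the text. The genes and lists were chosen with earlier results of these data known. Alternatives changed flank, width, placing, merging and assignment.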

Additional observations from a re-analysis of the deposited data

How the results depend on the processing

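No paired analysis was possible because positions alone were deposited in the list, and for the same reason no library could be left out. The 9 genes with a region became 7 with 50 kb on each side, 3 within the span (Egfr, Erbb4 and Nrg1), 5 with 451-base regions alone and 5 when a region counted only for its nearest protein-coding gene. The 24 regions became 11 within the span, 37 with 200 kb, 12 with either width alone and 14 by nearest gene. The 40 pathway genes became 13 within the span, 14 with 451-base regions alone and 26 by nearest gene. The share of all protein-coding genes, 42.7%, became 29.7% with 50 kb, 10.2% within the span, 60.0% with 200 kb, 19.7% with 451-base regions, 29.0% with narrower regions and 16.9% by nearest gene. Counting any overlap gave 25 regions, the added one being at Hbegf, and merging within 1 kb gave 23. Of 80 counts of single genes under other settings, 52 stayed within 1.5 times, among them all those of Erbb3, which were 0 throughout. Apart from those by width, the others were Btc (0) and Hbegf (0) with 50 kb, Areg (6), Ereg (9) and Hbegf (6) with 200 kb, Hbegf (2) by overlap, Erbb2, Areg, Ereg, Hbegf, Tgfa and Btc (0 each) within the span, and by nearest gene Ereg (1), Btc (2) and Erbb2, Areg, Hbegf and Tgfa (0 each).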
